A study of Mus musculus with 16 samples.

Results

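Nr6a1, also called germ cell nuclear factor, encodes an orphan nuclear receptor, and the series title names it as a target that Let-7 represses in adult fibroblasts. The locus was taken as a window spanning the gene on chromosome 2 of the mouse build mm9, in which the gene lies on the minus strand, so its promoter end has the higher coordinates. All peaks overlapping this window were taken from the 24 deposited peak lists, which gave 56 peaks of 289380 on chromosomes 1 to 19 and X. Of these, 37 came from lists called against whole-cell extract, and 19 came from difference lists, taken here as peaks of a library over the other genotype. Peaks entered by position alone, whatever their values, but the locus itself was chosen with earlier results of these data known.

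The cells were monoclonal immortalized lines of murine mesenchymal stem cells (MSCs) on the C57BL/6 strain, stromal cells that grow like fibroblasts. Dicer -/- cells (KO), which lack the enzyme that releases mature microRNAs from their hairpin precursors, were compared with Dicer f/f cells (WT), whose floxed alleles are intact. The series has 16 samples: 2 KO and 2 WT libraries for each of 3 histone marks, and 4 extract samples with no peak list of their own. The labels do not say how many clones there were or whether replicates came from separate cultures, so a difference between clones and the loss of Dicer cannot be told apart, and p-values measure only the spread between these libraries.

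H3K4me3 marks active and poised promoters. H3K36me3 is laid down behind elongating RNA polymerase along transcribed genes. H3K27me3 is the mark of Polycomb repression. The Nr6a1 protein is a transcriptional repressor known for silencing pluripotency genes such as Pou5f1 when embryonic cells differentiate. It is needed in the mid-gestation embryo and in adults is best known from germ cells. Let-7 microRNAs act on mRNA after transcription, by pairing through their seed, whereas the marks describe the chromatin of the gene. Neither mRNA nor microRNA levels were measured in these lists.

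The Let-7 family is shown because it links the deleted enzyme to this gene. The mature sequences are from RefSeq (GRCm38.p6), 5′ to 3′, with the seed (bases 2 to 8) in capitals. All 9 printed members share the seed GAGGUAG.
mmu-let-7a-5p: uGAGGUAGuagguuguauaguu
mmu-let-7b-5p: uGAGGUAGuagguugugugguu
mmu-let-7c-5p: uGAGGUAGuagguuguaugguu
mmu-let-7d-5p: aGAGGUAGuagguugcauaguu
mmu-let-7e-5p: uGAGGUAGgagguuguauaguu
mmu-let-7f-5p: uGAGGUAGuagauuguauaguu
mmu-let-7g-5p: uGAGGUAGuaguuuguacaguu
mmu-let-7i-5p: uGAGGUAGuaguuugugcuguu
mmu-miR-98-5p: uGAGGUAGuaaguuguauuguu

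The promoter end of Nr6a1 carried H3K4me3 in every library. The region there was taken as the upstream promoter by its place in the window, as no start was placed in mm9. The H3K4me3 region at chr2:38779818-38783687, made by merging the peaks of the 4 libraries, carried peaks over 3451 and 3870 bp in the KO libraries, against 2497 and 3460 bp in the WT libraries. Each of the 4 libraries gave its main peak there a score of 3100, a value that many of the strongest peaks share. The peak was longer than 93.1% and 89.6% of the peaks in the KO lists, and in WT replicate 2 it was longer than 82.0% of the list. In WT replicate 1 it was split into peaks of 1626 and 871 bp. No H3K4me3 difference peak of any library fell on this promoter.

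Over the whole promoter end, the last 20 kb of the window, H3K4me3 covered 3451 and 4413 bp in the KO libraries, against 2497 and 3460 bp in the WT libraries. KO averaged 3932 ± 680 bp and WT 2979 ± 681 bp (SD, n = 2 each). The genotypes overlapped, since KO replicate 1 lay just below WT replicate 2, and the exact two-sided permutation test gave p = 0.667. The smallest p that 2 against 2 libraries allow is 0.333. Each KO library lay above the WT library of the same number. KO H3K4me3 lists were also longer across the genome when libraries of the same number were compared. They covered 32.2 and 52.7 Mb in the KO libraries, against 25.02 and 44.1 Mb in the WT libraries, so the genotypes overlapped. Per Mb covered genome-wide, the promoter end held 107 and 83.8 bp in the KO libraries, against 99.8 and 78.5 bp in the WT libraries.

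The body of the gene, the remaining 195 kb of the window, held an H3K4me3 peak in both KO libraries and in neither WT library. This internal region, chr2:38637745-38640979, carried peaks over 3087 and 3070 bp in the KO libraries, against 0 bp in both WT libraries. Its peaks had scores of 2888.68 and 1003.09 against extract in KO replicates 1 and 2, higher than 57.4% and 44.5% of the peaks in those lists and thus near their middle. It also held a difference peak in both KO replicates, with scores of 3100 and 1742.41. Within those difference lists, 24 of 5677 peaks in replicate 1 and 92 of 6581 in replicate 2 scored at least as high. Of the 6 H3K4me3 regions in the window it was the only 1 with a KO difference peak in both replicates, where 10.8% of all 25204 H3K4me3 regions had one. Regions that were called in this way and had a peak against extract in both KO libraries but in no WT library numbered 1246, or 4.94%. The internal region was singled out for its KO peaks, so these counts describe it and are not a test.

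**Figure D1:**
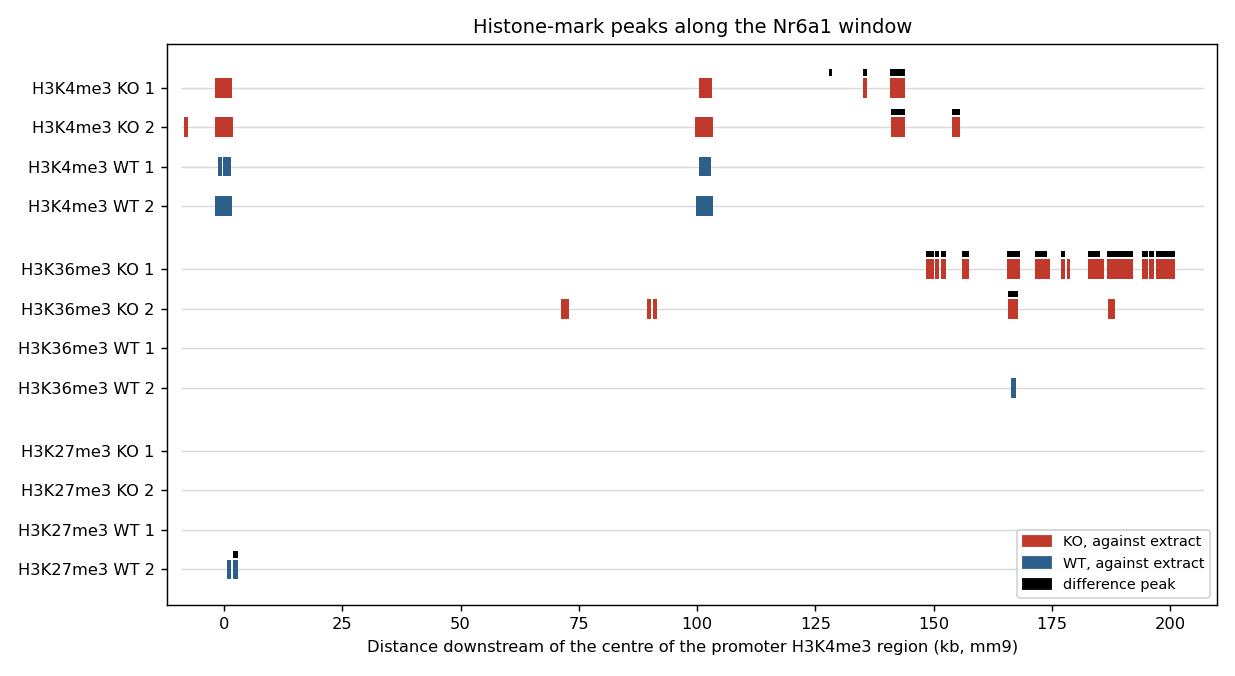
Peaks of the 12 libraries along the Nr6a1 window, in the direction of transcription from left to right. The x axis is the distance in kb downstream of the centre of the promoter H3K4me3 region, red and blue bars are KO and WT peaks against extract, and black bars are difference peaks. The H3K4me3 peak at about 142.4 kb and nearly all H3K36me3 beyond it are in KO rows.

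The RefSeq promoter table for GRCm38.p6 holds 2 start sites of Nr6a1, which lie 141.9 kb apart. In mm9 the centre of the internal H3K4me3 peak lay 142.4 and 142.5 kb downstream of the centre of the promoter peak in KO replicates 1 and 2. Positions were not converted between the builds, and a like distance does not place the peak on the internal start. Both promoters are printed because H3K4me3 marked the promoter end in all libraries and an internal place at a like distance only in KO. Neither start was placed on a peak. Each sequence runs from 250 bases before to 50 bases after the start, 5′ to 3′ on the minus strand, chr2:38926412-38926711 for the upstream and chr2:38784466-38784765 for the internal start in GRCm38.p6.
Nr6a1, upstream start: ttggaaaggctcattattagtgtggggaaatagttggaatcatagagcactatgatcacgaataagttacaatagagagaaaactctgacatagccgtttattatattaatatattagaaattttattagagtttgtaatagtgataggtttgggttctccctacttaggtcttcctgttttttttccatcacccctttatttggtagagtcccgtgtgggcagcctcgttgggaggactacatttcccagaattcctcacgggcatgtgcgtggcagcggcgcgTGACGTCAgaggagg
Nr6a1, internal start: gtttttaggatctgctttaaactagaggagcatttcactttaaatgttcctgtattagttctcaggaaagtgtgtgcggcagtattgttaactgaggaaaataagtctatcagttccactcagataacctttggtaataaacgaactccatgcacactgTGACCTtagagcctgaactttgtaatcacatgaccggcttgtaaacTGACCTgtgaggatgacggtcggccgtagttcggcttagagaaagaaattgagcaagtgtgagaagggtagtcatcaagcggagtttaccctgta
Capitals mark matches on either strand to the motifs searched: TGACGTCA, the palindromic cyclic AMP response element; AGGTCA, the half-site of nuclear receptors; CCAAT; and TATAAA. No 2 of the matches overlap.

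The upstream start held TGACGTCA 1 time, a motif found in 1.79% of 32851 RefSeq mouse promoters of the same length. The internal start held AGGTCA 2 times, both on the opposite strand as TGACCT, and 16.3% of promoters hold it at least once. CCAAT, found in 37.4% of promoters, and TATAAA, found in 13.6%, were in neither window. Both windows had a GC content of 42.3%, against a median of 52.7%, and they held 10 CpG sites at the upstream and 8 at the internal start, against a median of 7. A match describes the letters and says nothing of a factor bound there.

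Another place with H3K4me3 lay between the promoter and the internal region and was present in all 4 libraries. The region chr2:38678342-38682233, centred 101.5 kb downstream of the promoter region, carried peaks over 2750 and 3892 bp in the KO libraries, against 2559 and 3610 bp in the WT libraries. The genotypes overlapped there, and no difference peak fell on it. The score of its peak was 3100 in both KO libraries and in WT replicate 2, but 720.13 in the other WT library. The RefSeq starts of Nr6a1os, an lncRNA within the locus, lie 110.4 to 110.5 kb from the upstream Nr6a1 start in GRCm38.p6, so their distance differs from that of this region.

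The other 3 H3K4me3 regions were each listed in a single KO library. KO replicate 2 had a peak of 1587 bp at chr2:38626207-38627793, with a score of 330.04 and a difference peak of the same coordinates. KO replicate 1 had one of 880 bp at chr2:38645818-38646697, with a score of 106.92 and also a difference peak. KO replicate 2 further had a peak of 826 bp at the edge of the window, centred at -8.1 kb from the promoter region (upstream of it), with a score of 84.66. These did not recur in the other KO library.

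Over the whole body H3K4me3 covered 6717 and 8549 bp in the KO libraries, against 2559 and 3610 bp in the WT libraries. KO averaged 7633 ± 1295 bp and WT 3085 ± 743 bp (SD, n = 2 each), and the exact two-sided permutation test gave p = 0.333, the smallest possible. Both KO values lay above both WT values, as they did in 13% of 7555 genome tiles of the same size that held H3K4me3. Per Mb covered genome-wide the body held 208 and 162 bp in the KO libraries, against 102 and 81.9 bp in the WT libraries. Both KO values thus stayed above both WT values, while the order of the replicates within each genotype reversed. Regions with a KO difference peak numbered 2 of 6 in replicate 1 and 2 of 6 in replicate 2, against 20.7% and 23.8% of all regions. No region of the window had a WT difference peak for this mark, which 7.19% and 5.07% of all regions had in WT replicates 1 and 2. Of the 6 regions, 4 were listed only in KO libraries, so both the KO and the WT counts partly follow from how regions entered.

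**Figure D2:**
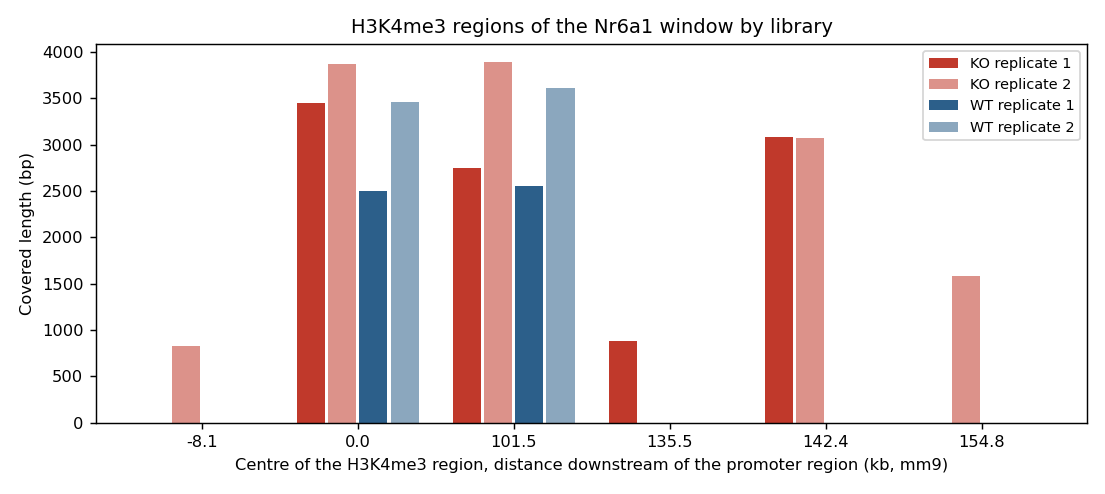
Covered length in bp (y axis) of the 6 H3K4me3 regions of the Nr6a1 window in each library, ordered by the distance in kb of their centre downstream of the promoter region (x axis, not to scale). The regions at 0 and 101.5 kb have bars in all 4 libraries, while the region at 142.4 kb has bars of 3087 and 3070 bp in KO and none in WT.

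H3K36me3 in the gene body was found almost wholly in KO cells, and it lay mostly towards the end of the gene. It covered 27738 and 7187 bp of the body in KO and 0 and 1016 bp in WT. KO replicate 1 had 15 peaks, KO replicate 2 had 5, WT replicate 1 had 0 and WT replicate 2 had 1. The KO mean was 17463 ± 14532 bp and the WT mean 508 ± 718 bp (SD, n = 2 each), with p = 0.333 in the exact two-sided permutation test. The groups did not overlap, but the KO libraries differed strongly from each other. Both KO values lay above both WT values in 2.61% of 5371 tiles of this size with H3K36me3, and the reverse order was found in 36.6% of them. No library had H3K36me3 in the promoter end.

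In KO replicate 1 all of this H3K36me3 lay downstream of the internal H3K4me3 region. Its 15 peaks ran from chr2:38580678 to chr2:38633292, a span of 52.6 kb of which 27.7 kb was covered, and the nearest one lay 4.5 kb from the internal region. The longest, chr2:38589639-38595170, measured 5532 bp with a score of 984.05, higher than 87.7% of its list. The highest score was 1100.65, at chr2:38613410-38616230. In KO replicate 2, 52.8% of the covered length lay downstream of the internal region, in peaks of 1521 and 2273 bp that fell inside peaks of KO replicate 1. Downstream of the internal region H3K36me3 thus covered 27738 and 3794 bp in the KO libraries, against 0 and 1016 bp in the WT libraries, a split of the body chosen after its peaks were seen and given without a test.

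The other 3 KO replicate 2 peaks lay upstream of the internal region, where the remaining libraries had no H3K36me3. They measured 773, 813 and 1807 bp and had low scores, between 82.87 and 113.4. The 1807 bp peak lay 71.2 to 73.0 kb downstream of the centre of the promoter region. The Mir181b-2 and Mir181a-2 hairpins, on the opposite strand within the gene, lie 72.5 and 73.7 kb from the upstream start in GRCm38.p6. From the upstream promoter to 71.2 kb downstream no library had a peak of this mark.

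A single H3K36me3 region had difference peaks in both KO replicates. This was chr2:38613410-38616230, with peaks over 2821 and 2273 bp in the KO libraries, against 0 and 1016 bp in the WT libraries, so the only WT peak of this mark lay inside it. Its difference peaks had scores of 423.86 and 114.2 in KO replicates 1 and 2, and the WT peak had a score of 131.65 against extract. It was 1 of 18 H3K36me3 regions in the window, and 0.668% of all 39794 H3K36me3 regions had a KO difference peak in both replicates. With peaks limited to scores of at least 160 this call was lost, leaving 0 regions in the window. In replicate 1 alone 12 of the 18 regions had one, against 4.23% of all regions, while in replicate 2 alone 1 did, against 2.31%. No region had a WT difference peak, against 5.76% and 8.42% of all regions in WT replicates 1 and 2. This count says little, because 17 of the 18 regions held no WT peak against extract. Difference peaks of the window nearly always repeated a peak of the library's own list. The 18 regions are neighbouring pieces of 1 locus and not independent, and 16 of them were listed in a single library. Since 17 of them entered only through KO peaks, their KO counts cannot be compared evenly with the shares of all regions.

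**Figure D3:**
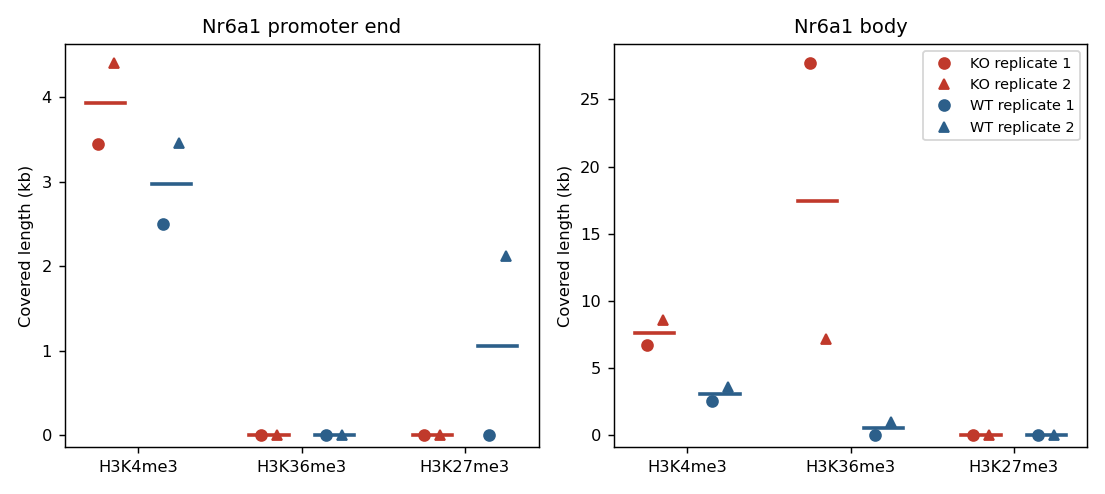
Covered length in kb (y axis) of each mark in the promoter end and the body of Nr6a1 (x axis), with a symbol per library and a line at the mean of each genotype. Both KO symbols lie above both WT symbols for H3K4me3 and H3K36me3 in the body, and the H3K36me3 values of KO span 7187 to 27738 bp.

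The KO excess of H3K36me3 was not seen in the flanks of the window. In the 100 kb next to the window on the side of the gene's end, H3K36me3 covered 17566 and 17545 bp in the KO libraries, against 18891 and 22377 bp in the WT libraries. There both WT values lay above both KO values. That order was found in 36.5% of tiles of the size of the window, which are longer than this flank. No share was counted for 100 kb. In the 100 kb on the promoter side it covered 24669 and 23969 bp in the KO libraries, against 22779 and 29020 bp in the WT libraries, and the genotypes overlapped. Nr5a1, which encodes steroidogenic factor 1, is the next gene beyond the end of Nr6a1 in RefSeq, and Olfml2a is the next on the promoter side. For H3K4me3 the flanks leaned to KO. On the side of the gene's end it covered 4252 and 5844 bp in the KO libraries, against 1646 and 4917 bp in the WT libraries. On the promoter side it covered 8727 and 11671 bp in the KO libraries, against 6708 and 8851 bp in the WT libraries. The genotypes overlapped in both flanks, but each KO library lay above the WT library of the same number. H3K4me3 difference peaks covered 2336 and 757 bp beyond the gene's end and 1682 and 1517 bp on the promoter side in the KO libraries, against 0 bp in the WT libraries. Across the genome these lists were also longer in KO, with 6.79 and 8.82 Mb, against 3.94 and 2.25 Mb in WT. Across the genome H3K36me3 covered 87.0 and 110 Mb in the KO libraries, against 108 and 177 Mb in the WT libraries, so the KO lists of this mark were not longer in general.

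Set beside genome tiles of the size of the window, the Nr6a1 window lay towards the KO end for both marks. Its mean difference between KO and WT was 5502 bp for H3K4me3, against a median of 700.5 bp over 7087 tiles with the mark, and 172 tiles had a larger one. For H3K36me3 it was 16954.5 bp against a median of -5343 bp over 5024 tiles, and 35 tiles had a larger one. KO replicate 1 decides much of the H3K36me3 value: without it the difference in the body was 6679 bp.

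**Figure D4:**
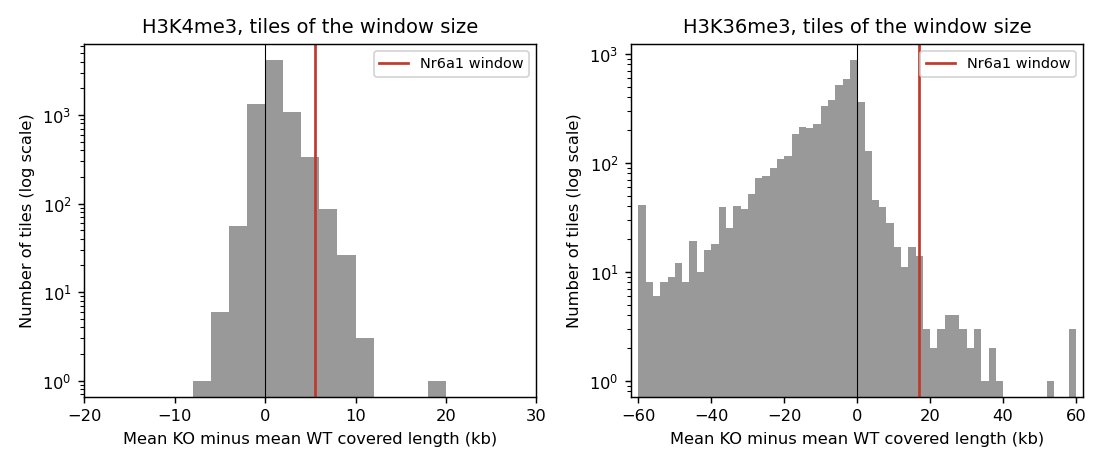
Number of genome tiles of the size of the window (y axis, log scale) by mean KO minus mean WT covered length in kb (x axis) for H3K4me3 and H3K36me3, with the Nr6a1 window as a red line. The outermost H3K36me3 bins hold all tiles beyond them. The red lines stand at 5502 bp for H3K4me3 and 16954.5 bp for H3K36me3, in the right tail of both distributions.

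The joint pattern was also counted over the genome, with a distance set after the Nr6a1 regions were seen. Of the 1246 H3K4me3 regions that had a KO difference peak in both replicates and were listed only in the KO libraries, in both of them, 23 (1.85%) had an H3K36me3 region with KO difference peaks in both replicates within 25 kb. The internal region of Nr6a1 was 1 of these 23, through the H3K36me3 region whose call was lost with scores of at least 160. The same share over all H3K4me3 regions was not counted, so 1.85% cannot be called high or low. The 3 tiles whose covered lengths were most like those of the Nr6a1 window over the 12 libraries were chr6:94475260-94690260, chr6:82650205-82865205 and chr13:94690261-94905261. Likeness was the Euclidean distance of log2(covered bp + 1000), which was 2.43, 2.53 and 2.82 for these and had a median of 7.92 over 7931 tiles. In the most alike tile, on chromosome 6 at 94475260, H3K36me3 covered 11038 and 7425 bp in the KO libraries, against 825 and 2706 bp in the WT libraries. H3K4me3 covered 10148 and 14494 bp there in the KO libraries, against 4135 and 6875 bp in the WT libraries, and no library had H3K27me3. In the next, at 82650205, H3K36me3 covered 28563 and 7433 bp in the KO libraries, against 649 and 1982 bp in the WT libraries. H3K4me3 covered 5257 and 11027 bp there in the KO libraries, against 2884 and 5211 bp in the WT libraries. H3K27me3 covered 0 and 1370 bp of it in the KO libraries, against 0 bp in both WT libraries, whereas in the Nr6a1 window its only peaks were in WT. In the tile on chromosome 13 H3K36me3 covered 7671 and 6052 bp in the KO libraries, against 0 bp in both WT libraries.

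H3K27me3 was nearly absent from the window. Only WT replicate 2 had peaks of it, at chr2:38778752-38779960 and chr2:38780234-38781148, both at the upstream promoter. It covered 0 bp of the promoter end in both KO libraries, against 0 and 2124 bp in the WT libraries. The exact two-sided permutation test gave p = 1 (n = 2 each). The scores were 139.38 and 83.83, and the first was also a difference peak with a score of 95.41. That made 1 of 2 regions with a WT difference peak in replicate 2, against 21% of all 24016 H3K27me3 regions, and 0 of 2 in both replicates, against 3.76%. Both regions entered only through peaks of WT replicate 2, so these counts largely follow from that and cannot be compared evenly with the shares. In WT replicate 2, 915 bp of H3K27me3 lay within H3K4me3. No library had H3K27me3 in the body. The H3K27me3 lists differed widely in length, with 703 and 17491 peaks in KO and 2558 and 14932 in WT, and both replicate 1 lists were short. Outside the window, in the 100 kb beyond the end of the gene, it covered 0 and 1520 bp in the KO libraries, against 3318 and 8509 bp in the WT libraries. Both WT values lay above both KO values there. Of 4842 tiles of the size of the window with this mark, 6.01% had that order. These tiles are longer than the flank, and no share was counted for 100 kb. KO replicate 1 covered only 0.73 Mb of the genome with this mark, so its 0 bp says little.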

How the data were processed

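Histone ChIP-seq peak lists of 12 libraries were used. The submitters' processing notes name Bowtie 0.12.7, MACS with no version, and the build mm9. Per the labels, each list belongs to 1 library, so replicates were not pooled. Each peak carries a score that the authors deposited, at least 80 throughout, and how it was computed is not stated. Scores served only to describe, filter or rank peaks within a list. What each difference list was called against is not stated either. The other genotype was assumed, and every direction drawn from these lists rests on that. Of the 19 difference peaks in the window, 18 had the coordinates of a peak from the library's own list, which shows whose peaks they are but not what they were compared with. Longer lists can come from deeper or better enriched libraries. Read depth is unknown. With 2 libraries per genotype and mark, no interval was given.

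The window was chr2:38575000-38790000. Positions are 1-based. Peaks were clipped at the zone edges, merged within a library, and their covered bp summed for the promoter end (chr2:38770000-38790000) and the body (chr2:38575000-38769999). Genotypes were compared with an exact two-sided permutation test of the difference of means. Regions were merged from the 4 lists of a mark against extract, and a region was called when it shared at least 1 bp with a difference peak. Genome tiles were laid out from the window and counted where they held the mark. Python 3.11.15 and scipy 1.17.1 were used, and the code was tested on simulated lists. No pair of libraries had identical lists. The window, zones and genes were chosen with earlier results of these data known. The text names Nr6a1 and regions inside its window, and no mm9 annotation was used, so other genes, cell type markers and the positions of exons were not analysed here. Alternatives were a minimum score of 160, promoter ends of 10 and 40 kb, whole peak lengths, scaling by genome-wide covered length, difference lists, leaving out each library and a replicate block. For region calls they were an overlap of 50% and merging of peaks less than 1 kb apart.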

Additional observations from a re-analysis of the deposited data

How the results depend on the processing

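Of 90 alternatives over 10 results, 9 brought a difference to or from 0 bp or changed a count of regions. Many of the others had little or no room to change, so their number does not measure robustness. No library had H3K36me3 in the promoter end, and the replicate block repeats the main difference by construction. A smaller difference, such as 6679 against 16954.5 bp for H3K36me3 in the body, was not counted as a change. In the difference lists H3K4me3 covered 0 bp of the promoter end in either genotype, so that difference was 0 bp. The H3K27me3 difference at the promoter end ended, at 0 bp, with scores of at least 160 and without WT replicate 2, the only library with such peaks. With a promoter end of 10 kb, -604.5 bp of it fell in the body. The H3K36me3 region with KO difference peaks in both replicates was lost with scores of at least 160, leaving 0. With single libraries left out, the H3K4me3 difference ranged from 472 to 1435 bp in the promoter end and from 3632.5 to 5464.5 bp in the body. The H3K36me3 difference ranged from 6679 bp (without KO replicate 1) to 27230 bp (without KO replicate 2) in the body and from 3286 to 27230 bp downstream of the internal region. The H3K27me3 difference ranged from -2124 to 0 bp. With 1 replicate alone, regions with a difference peak numbered 2 and 2 for H3K4me3, 1 to 12 for H3K36me3 and 0 to 1 for H3K27me3.

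With replicate number as a block, the differences were the same by construction (4548.5 bp for H3K4me3 and 16954.5 bp for H3K36me3 in the body), with an exact sign-flip p of 0.5, the smallest that 2 pairs allow. Deviations of same-numbered libraries over the tiles correlated at r = 0.28 for H3K4me3, 0.11 for H3K36me3 and 0.30 for H3K27me3, but the labels do not say that a number marks a shared batch. Called peaks without read counts, and 2 libraries per genotype and mark, set the limit of precision throughout.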

Other observations

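On the promoter side of the Nr6a1 window no library had H3K27me3 within 100 kb.

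KO replicate 1 had an H3K4me3 difference peak of 682 bp at chr2:38653163-38653844, with a score of 81.47, where its own list against extract had none. It was the only 1 of the 19 difference peaks in the window that met no peak of the same library.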
